A study of Mus musculus with 26 samples.

Results

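Brown adipose tissue of floxed control mice was compared after a cold challenge and at room temperature, in 7 of the 26 RNA sequencing libraries of a study on Klf15. The comparison comprised the 4 libraries labelled K15FF cold and the 3 labelled K15FF RT, called FF here. It covered genes with at least 1 FPKM in 3 of these 7 libraries, 11927 of the 48432 genes in the table. Another 3 genes reached this level but were left out for zeros taken as failed estimates. FPKM is the number of sequenced fragments of a gene, scaled to the length of its transcript and to the size of the library. The FF mice were KLF15 flox/flox, with no Cre listed, and were 2 months old. The room temperature mice were labelled as fed, and the labels give neither the temperature nor the duration of the cold challenge. The labels of the cold mice compared here name no fasting, unlike those of a separate FF group labelled cold and fasting. They do not otherwise state how the cold mice were fed. Each library carried its own animal number, so that the libraries are read as 1 mouse each. The 26 libraries form 8 groups, which include fasted mice of both genotypes at room temperature and in the cold. P-values measure the spread between libraries within these 8 groups, which share 1 estimate of spread per gene. They do not measure the spread of the 7 libraries alone. For comparison, 4 cold and 3 room temperature libraries of BKO mice were used (Ucp1-Cre/+;K15F/F, 2 months old), in which Cre from the Ucp1 promoter, active in brown adipocytes, deletes Klf15 in those cells.

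Brown fat burns fatty acids and glucose to make heat. In the cold, sympathetic nerves release noradrenaline, beta-adrenergic receptors raise cAMP, protein kinase A starts lipolysis, and the uncoupling protein Ucp1 lets the respiratory chain run without making ATP. The same signal raises transcription of genes for heat production, fuel uptake and lipid turnover, while KLF15 is a Krüppel-like transcription factor known for its role in the use of amino acids, lipids and glucose.

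Differences below are the mean of log2(FPKM + 1) in cold minus that at room temperature, ± its standard error, from limma with Benjamini-Hochberg adjustment over the 11927 genes. A gene was called, and is said to have risen or fallen, at an adjusted p under 0.05. Adding 1 understates the change of genes at low levels, and fold values are ratios of mean FPKM. Values by library are given in the order of libraries 1 to 4 for cold and 1 to 3 for room temperature.

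The sum of FPKM was 416920 to 462209 per library, and 11501 to 11816 genes reached 1 FPKM in each. Sequencing depth is unknown because the values are not counts, and counting error is therefore not given. Library numbers in the labels fall into a first series of up to 8 and a second series from 15 on. Cold library 1 and room temperature library 3 belong to the second series, as do all BKO libraries compared here, and the other 5 belong to the first. Within each series, the animal numbers of cold and room temperature FF mice lay apart. The labels do not say what these numbers stand for. A difference between sets of mice therefore cannot be told apart from the cold, also within 1 series. Room temperature library 3 stood apart from the other 2 in its group. On the first principal component of the 7 libraries, which held 56% of the variance, it lay at -11.8, the other room temperature libraries at -26.96 and -31.5, and the cold libraries between 16.1 and 19.1. In 1960 of the 2927 genes called (67%) it was the room temperature library nearest to the cold mean.

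Markers of brown adipocytes were abundant, as the labelled tissue implies. The 8 brown adipocyte markers that were tested summed to 5190 to 5487 FPKM at room temperature and to 6094 to 6471 FPKM in the cold, and Cidea, a lipid droplet protein of brown adipocytes, was at 1744, 2015, 1928 and 1857 FPKM in the cold and 1993, 2097 and 2007 FPKM at room temperature. Of these 8 markers, Elovl3 and Cox7a1 rose, Adipoq fell and 5 were not called, and the median difference was -0.13. White adipocyte markers summed to 28.1 to 39.1 FPKM in the cold and 50.7 to 57.8 FPKM at room temperature, with Hoxc9, Hoxc10 and Tcf21 at 0 in all 7 libraries. Of the 5 tested, Retn fell and the other 4 were not called.

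Ucp1 itself could not be compared. It was listed at 2647, 2687 and 4486 FPKM at room temperature and at exactly 0 in all 4 cold libraries. Gpd1, glycerol-3-phosphate dehydrogenase, was at 3123, 2748 and 4007 FPKM at room temperature and at 0 in the 4 cold libraries. Fasn and Scd1, the fatty acid synthase and the stearoyl-CoA desaturase, were at 0 in all 7. These zeros stand in some of the most abundant transcripts of the tissue, next to lipid genes with values in every library, so they were taken as failed estimates and no difference was computed for these 4 genes.

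Of the 11927 genes, 1679 rose in the cold (14.1%) and 1248 fell (10.5%), so that 2927 (24.5%) were called. At an unadjusted p under 0.05 the number was 4391. In 4094 genes (34.3%) the cold and room temperature libraries did not overlap, and 2645 of the called genes (90.4%) were among them. Most changes were modest: 153 rises and 106 falls reached 1 on the log2 scale, and the median over all genes tested was -0.0011. Within the first library series alone, 1521 genes rose and 1159 fell. Without room temperature library 3 the counts were 1758 and 1405.

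**Figure D1:**
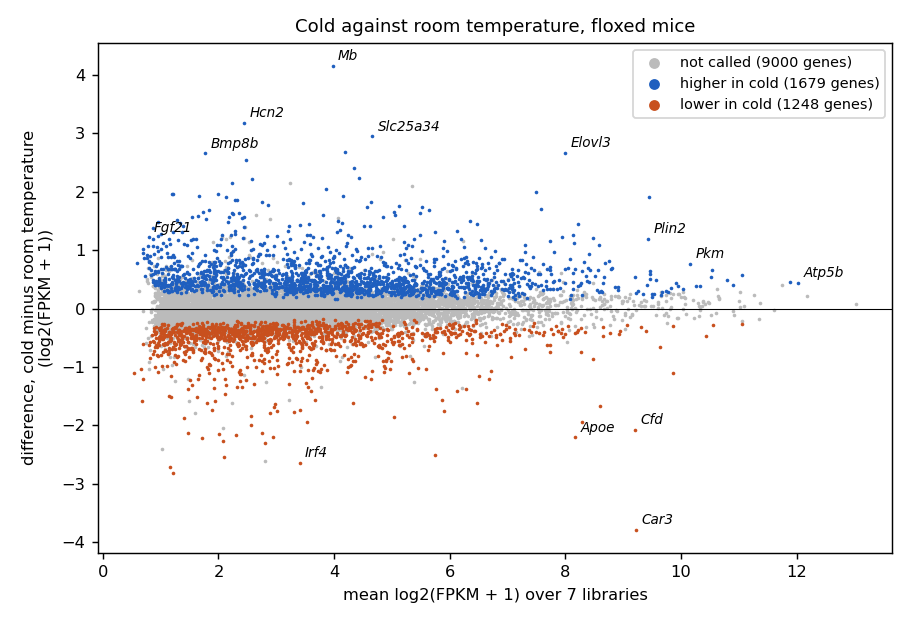
Each point is 1 of the 11927 genes, at its mean log2(FPKM + 1) over the 7 libraries (x axis) and its difference in log2(FPKM + 1) between cold and room temperature (y axis). The 1679 rises and 1248 falls spread over the whole range of levels, with Mb at 4.15 and Car3 at -3.78 at the ends.

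The gene with the largest rise was Mb, which encodes myoglobin, the oxygen-binding heme protein best known from muscle. It stood at 59.1, 46.05, 45.3 and 64.1 FPKM in the cold and 2.47, 2.51 and 1.30 FPKM at room temperature, a 25.6-fold ratio of means (log2 difference 4.15 ± 0.30, adjusted p = 1.68e-09). All 4 cold libraries lay far above the 3 at room temperature. Skeletal muscle markers were uneven between libraries: Acta1, skeletal muscle actin, was at 1.61, 38.6, 11.5 and 13.7 FPKM in the cold and 4.12, 11.5 and 0.0277 FPKM at room temperature, and none of the 10 muscle markers tested was called. The sum over the muscle markers was 33.5 to 244 FPKM in the cold and 35.9 to 95.5 FPKM at room temperature. Of the 10, 9 had differences above 0, with a median of 1.20, and the part of muscle RNA in the Mb values was not tested.

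Hcn2, a hyperpolarisation-activated cation channel, was at 13.7, 14.03, 12.3 and 12.2 FPKM in the cold and 0.511, 0.510 and 0.617 FPKM at room temperature (difference 3.18 ± 0.17, adjusted p = 5.91e-12). Slc25a34, a carrier of the mitochondrial inner membrane, was at 60.9, 65.9, 61.9 and 51.05 FPKM in the cold and 5.08, 5.50 and 11.2 FPKM at room temperature (2.95 ± 0.23, adjusted p = 9.32e-09). Elovl3, which elongates very long fatty acids and is a long-known cold-induced gene of brown fat, was at 590.2, 518, 530 and 625 FPKM in the cold and 76.5, 50.9 and 174 FPKM at room temperature (2.67 ± 0.40, adjusted p = 4.26e-05). The leading rises and falls were picked among called genes whose groups did not overlap, so the lack of overlap in them is no finding. In Slc25a34 and Elovl3 room temperature library 3 was the highest of its group.

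Bmp8b, a secreted factor of the bone morphogenetic protein family that brown adipocytes make, was at 12.1, 3.84, 4.48 and 8.13 FPKM in the cold and 0.113, 0.137 and 0.322 FPKM at room temperature, a 37.5-fold ratio of means (2.66 ± 0.31, adjusted p = 2.13e-06). Bdh1, the ketone body enzyme 3-hydroxybutyrate dehydrogenase, went from below 0.1 FPKM in every room temperature library to 5.71, 1.84, 3.61 and 2.34 FPKM in the cold (1.97 ± 0.30, adjusted p = 4.55e-05). No cold library of either gene came near room temperature. Acot1, a cytosolic acyl-CoA thioesterase, was at 8.94, 9.60, 8.35 and 5.43 FPKM in the cold and 0.971, 0.750 and 1.33 FPKM at room temperature (2.15 ± 0.36, adjusted p = 0.000156). Ak4, a mitochondrial adenylate kinase, was at 5.61, 6.29, 5.58 and 6.93 FPKM in the cold and 0.734, 0.628 and 1.15 FPKM at room temperature (1.96 ± 0.16, adjusted p = 9.82e-09), and Gmpr, guanosine monophosphate reductase, was at 399.6, 346, 305 and 266 FPKM in the cold and 71.4, 84.7 and 86.3 FPKM at room temperature (2.00 ± 0.39, adjusted p = 0.000746). By the same rule of choice, no library of one group reached the other.

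The other leading rises were less well described genes. Slco4a1, an organic anion transporter, differed by 2.22 ± 0.25, Ttc25 by 2.24 ± 0.36, 4930415O20Rik by 2.54 ± 0.21 and the long noncoding RNA 2310069B03Rik by 2.40 ± 0.27. Gm15241 (2.69 ± 0.17) lies antisense within Adgrg2, and since the library type is not stated to keep the strand, its reads cannot be told apart from those of Adgrg2. Ighm, the immunoglobulin mu chain, was at 18.6, 28.8, 18.2 and 42.6 FPKM in the cold and 4.09, 4.95 and 7.82 FPKM at room temperature (2.04 ± 0.31, adjusted p = 4.44e-05), and it was the only one of 9 lymphocyte markers that passed the level filter.

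**Figure D2:**
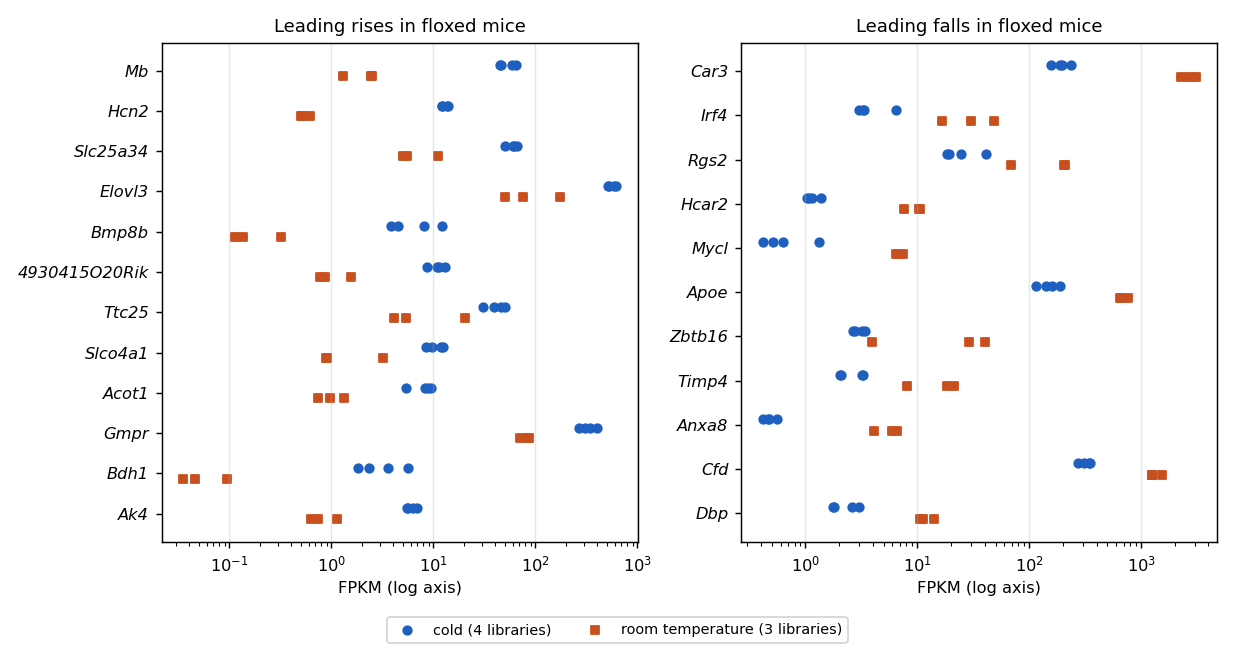
FPKM per library on a log axis for 12 leading rises (left) and 11 leading falls (right). Blue circles are the 4 cold libraries and orange squares the 3 room temperature libraries. The 23 genes were picked among those in which the colours do not overlap. In Zbtb16 the lowest room temperature library, at 3.96 FPKM, lies just above the highest cold library, at 3.38 FPKM.

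The largest fall was that of Car3, carbonic anhydrase 3, one of the most abundant proteins of adipocytes. It was at 196, 237, 187 and 158 FPKM in the cold and 2709, 3081 and 2255 FPKM at room temperature, a 13.8-fold lower mean in the cold (-3.78 ± 0.20, adjusted p = 8.89e-12). Among protein-coding genes Irf4 came next, an interferon regulatory factor that also works with PGC-1alpha in brown fat, at 3.34, 6.39, 3.02 and 3.25 FPKM in the cold and 30.1, 16.6 and 48.6 FPKM at room temperature (-2.64 ± 0.37, adjusted p = 1.91e-05). Cfd, complement factor D or adipsin, was at 308, 353, 346 and 274 FPKM in the cold and 1261, 1522 and 1264 FPKM at room temperature (-2.07 ± 0.18, adjusted p = 2.73e-08), and Apoe, apolipoprotein E, at 139.9, 187, 159.8 and 116 FPKM in the cold and 645, 764 and 660.3 FPKM at room temperature (-2.21 ± 0.16, adjusted p = 3.56e-09). The groups were apart in all 4 genes, as the rule of choice required. Car3, Cfd and Apoe were still above 100 FPKM in every cold library.

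Rgs2 and Hcar2, which dampen signalling by G protein-coupled receptors and lipolysis, were also among the leading falls. Rgs2, which limits G protein signalling, was at 24.7, 41.4, 19.2 and 18.4 FPKM in the cold and 210.4, 204 and 68.7 FPKM at room temperature (-2.50 ± 0.40, adjusted p = 9.65e-05). Hcar2, the Gi-coupled receptor through which beta-hydroxybutyrate and nicotinic acid restrain lipolysis, was at 1.15, 1.08, 1.39 and 1.04 FPKM in the cold and 7.62, 10.4 and 10.5 FPKM at room temperature (-2.27 ± 0.21, adjusted p = 7.57e-08). In Rgs2, room temperature library 3 was the lowest of its group, but above every cold library.

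Mycl, a MYC family transcription factor, was at 0.513, 0.421, 1.32 and 0.633 FPKM in the cold and 6.41, 7.48 and 6.76 FPKM at room temperature (-2.22 ± 0.19, adjusted p = 3.96e-08). Timp4, a metalloproteinase inhibitor, differed by -2.13 ± 0.32, Anxa8, an annexin, by -2.13 ± 0.11, the clock output factor Dbp by -1.99 ± 0.26, and Zbtb16, a glucocorticoid-responsive zinc finger factor, by -2.20 ± 0.60. Among the 15 largest falls were also 3 noncoding genes at low levels. Gm16537 was listed at 0 in all 4 cold libraries, and it lies antisense within Gpd1, the gene whose values failed in the same 4 libraries. Gm23119, a small Cajal body RNA, was listed at 0 in the cold libraries and at 7.62, 3.40 and 8.15 FPKM at room temperature, and the rRNA gene n-R5-8s1 was at 0, 2.70, 3.41 and 0 FPKM in the cold and 10.2, 4.82 and 23.5 FPKM at room temperature. The call of Gm23119 was lost without room temperature library 1 (adjusted p = 0.0577), and that of n-R5-8s1 within the first library series (adjusted p = 0.0584).

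The members of pathways were counted from lists chosen with earlier results of these data known, so their counts describe the response and are read beside the shares over all genes, 14.1% up and 10.5% down. Of the 23 tested genes of the thermogenic program, 8 rose, 1 fell and 14 were not called, with a median difference of 0.26. Within the first library series 11 rose and 3 fell. Besides Elovl3 and Bmp8b, the rises included Letmd1, a mitochondrial inner membrane protein needed for brown fat function, at 584, 557, 536 and 534 FPKM in the cold and 322, 327 and 374 FPKM at room temperature (0.70 ± 0.079, adjusted p = 1.42e-06), and Cox7a1, the heart and muscle form of a cytochrome oxidase subunit, at 2405, 2464, 2474 and 2738 FPKM in the cold and 1658, 1844 and 1556 FPKM at room temperature (0.58 ± 0.13, adjusted p = 0.00269). Esrrb, an oestrogen-related receptor, was near 0.1 FPKM at room temperature and at 1.67, 1.14, 1.21 and 1.44 FPKM in the cold (1.07 ± 0.14, adjusted p = 1.22e-05).

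The regulators best known for their acute induction by cold were not called. Dio2, the deiodinase that activates thyroid hormone within the tissue, was at 43, 45.4, 28.5 and 25.1 FPKM in the cold and 17.9, 13.2 and 27.8 FPKM at room temperature (0.84 ± 0.37, adjusted p = 0.102). The highest room temperature value, that of library 3, lay within the cold range, and without that library the difference was 1.11 (adjusted p = 0.0494). With only these 7 libraries in the fit, Dio2 (adjusted p = 0.0435) and Prdm16 (adjusted p = 0.0159) passed. Ppargc1a, the coactivator PGC-1alpha, was at 21.1, 15.8, 12.8 and 11.1 FPKM in the cold and 16.8, 11.2 and 9.52 FPKM at room temperature (0.26 ± 0.34, adjusted p = 0.606), and its groups overlapped. Ppargc1b (difference -0.34, adjusted p = 0.130) and Prdm16 (-0.43, adjusted p = 0.269), which set mitochondrial content and brown identity, were not called either. Klf15, intact in these mice, was at 15.2, 16.9, 15.2 and 9.04 FPKM in the cold and 29.8, 30.6 and 23.5 FPKM at room temperature and fell (-0.97 ± 0.18, adjusted p = 0.000351).

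Of the 26 genes of beta-adrenergic and cAMP signalling, 2 rose and 5 fell, against 5 and 4 without room temperature library 3 and 6 and 6 within the first library series. The rises were adenylyl cyclases, which make cAMP. Adcy3 was at 138, 129, 134 and 105 FPKM in the cold and 42.99, 32.5 and 60.95 FPKM at room temperature (1.49 ± 0.23, adjusted p = 5.47e-05), and the soluble cyclase Adcy10 at 7.73, 6.62, 5.89 and 9.42 FPKM in the cold and 1.41, 1.10 and 2.74 FPKM at room temperature (1.64 ± 0.21, adjusted p = 7.63e-06). The falls, besides Rgs2, included the cyclase Adcy5 (-0.98 ± 0.25, adjusted p = 0.00601) and the kinase Sik2 (-0.52 ± 0.16, adjusted p = 0.0187), calls that were lost without room temperature library 2 and 1, respectively. Adrb3, the receptor through which noradrenaline acts in rodent brown adipocytes, was at 152, 179, 172 and 102 FPKM in the cold and 167, 115 and 230.4 FPKM at room temperature and was not called (-0.15 ± 0.28, adjusted p = 0.738). Adrb1 was at 13.3, 14.2, 12.7 and 12.9 FPKM in the cold and 4.70, 5.68 and 21.3 FPKM at room temperature. Here the cold libraries lay between 2 low room temperature values and a high one, and without library 3 the difference was 1.20 (adjusted p = 0.00168).

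Promoters were read for the 176 tested genes described here, 146 of which had an entry in the RefSeq promoter table (build GRCm38.p6), over the 250 bases before the gene start. Those of 3 cold-responsive genes and of Dio2 are shown, because each holds a short element that cAMP or stress factors are known to bind. They are examples and do not set these genes apart. The palindrome TGACGTCA is the cAMP response element, and TGATGCAA is a form of the element bound by ATF4 with C/EBP factors. The endoplasmic reticulum stress element is CCAAT, then 9 bases of any kind, then CCACG. Capitals mark the match on either strand, and sequences run 5′ to 3′ in the direction of the gene.
Dio2: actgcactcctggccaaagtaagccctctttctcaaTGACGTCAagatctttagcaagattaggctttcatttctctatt
Fgf21: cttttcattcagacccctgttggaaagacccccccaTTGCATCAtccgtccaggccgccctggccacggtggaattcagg
Angptl8: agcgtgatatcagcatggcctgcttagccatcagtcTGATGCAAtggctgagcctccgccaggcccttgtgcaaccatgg
Calr: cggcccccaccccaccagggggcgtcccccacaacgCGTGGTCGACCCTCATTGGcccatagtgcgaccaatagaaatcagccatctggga

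The windows lie at chr12:90739090-90739169 (minus strand) for Dio2, chr7:45615586-45615665 (minus strand) for Fgf21, chr9:21835344-21835423 (plus strand) for Angptl8 and chr8:84847039-84847129 (minus strand) for Calr, and none overlaps an exon of GENCODE M21. The matches begin 95, 139, 130 and 162 bases before the start of the gene in the RefSeq table, which for Dio2 lies 600 bases upstream of the start in GENCODE M21. The elements also occur before genes with other responses: TGACGTCA before Uqcrfs1, which rose, TGATGCAA before Vldlr, which fell, and the longer element before Adcy3, which rose, and Hspa5, which was not called. TGACGTCA was found in 2.81% of the promoters of genes that rose, 2.21% of those that fell and 3.22% of those of all genes tested. For TGATGCAA the shares were 0.562%, 0.697% and 0.629%, and for the longer element 0.241%, 0.116% and 0.154%. Over all 27025 genes of the table the shares were 1.77%, 0.918% and 0.13% in the same order of elements. Of the genes that rose, those that fell and all genes tested, TGACGCAA was found in 0.964%, 0.697% and 0.997%, the AP-1 element TGAGTCA in 5.06%, 4.65% and 3.76%, and the ETS element CCGGAAGT in 6.27%, 3.72% and 7.18%. A match is a description of the sequence only. The shares among the genes that rose were close to those among all genes tested for the first pair of elements, and the third rests on 3 genes that rose.

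Fgf21, a hormone of the fibroblast growth factor family, was at 2.14, 1.45, 0.795 and 1.77 FPKM in the cold and at 0, 0 and 0.209 FPKM at room temperature (1.22 ± 0.21, adjusted p = 0.000188). Angptl8, which together with other angiopoietin-like proteins regulates lipoprotein lipase, was at 126, 78.6, 69.8 and 62.3 FPKM in the cold and 19.2, 23.1 and 32.8 FPKM at room temperature (1.69 ± 0.41, adjusted p = 0.00413). The groups were apart in both genes, as they were in 90.4% of all called genes. Edn1, the vasoconstrictor endothelin-1, rose as well, at 3.54, 2.66, 1.76 and 3.66 FPKM in the cold and 0.541, 0.401 and 0.713 FPKM at room temperature (1.31 ± 0.18, adjusted p = 1.74e-05). Of the 18 secreted factors tested, 5 rose and 4 fell. The falls besides Cfd were Igf1, at 4.10, 3.37, 3.98 and 4.08 FPKM in the cold and 12.96, 17.7 and 12.2 FPKM at room temperature (-1.63 ± 0.23, adjusted p = 2.73e-05), Retn, the adipokine resistin (-0.98 ± 0.26, adjusted p = 0.00858), and Adipoq, adiponectin (-0.32 ± 0.11, adjusted p = 0.0404). The call of Adipoq was lost without any one of 3 cold libraries or of room temperature libraries 1 and 2.

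Most genes for glucose uptake and glycolysis rose. Of 22 tested, 13 rose, 0 fell and 9 were not called, with a median difference of 0.46. The 2 groups did not overlap in 14, against 34.3% of all genes tested. Pfkp and Pfkl, phosphofructokinases of the rate-setting step, were at 108, 105, 94.7 and 105 FPKM in the cold and 47.6, 35.4 and 71.3 FPKM at room temperature (1.05 ± 0.17, adjusted p = 9.61e-05) and at 466, 422, 450 and 452 FPKM in the cold and 227, 189.8 and 293 FPKM at room temperature (0.94 ± 0.12, adjusted p = 7.97e-06). Pkm, the pyruvate kinase of muscle type, was at 1497, 1363, 1427 and 1454 FPKM in the cold and 849.5, 731 and 969 FPKM at room temperature (0.76 ± 0.10, adjusted p = 1.05e-05). Tpi1 (0.64 ± 0.071, adjusted p = 1.15e-06), Pgam1 (0.69 ± 0.089, adjusted p = 8.31e-06) and Pgk1 (0.47 ± 0.066, adjusted p = 2.07e-05), of the middle and lower steps, rose by smaller amounts.

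Hk2, the insulin-regulated hexokinase, was at 137, 97.5, 129 and 139.7 FPKM in the cold and 77.2, 55.1 and 106 FPKM at room temperature and rose (0.69 ± 0.20, adjusted p = 0.0123), although the lowest cold library lay below room temperature library 3. The call of Hk2 was lost without room temperature library 2 (adjusted p = 0.13). The glucose transporters were not called: Slc2a4 (GLUT4) was at 354, 365, 374 and 319.6 FPKM in the cold and 276, 268 and 353 FPKM at room temperature (0.25 ± 0.10, adjusted p = 0.0881), and Slc2a1 (GLUT1) at 2.68, 2.87, 2.65 and 3.21 FPKM in the cold and 2.02, 2.40 and 2.64 FPKM at room temperature (0.20 ± 0.11, adjusted p = 0.195). In Slc2a4, room temperature library 3 lay at the level of cold library 1, and without it the difference was 0.37 (adjusted p = 0.0135).

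At the entry of pyruvate into mitochondria, 5 of 13 genes rose and 1 fell, against 3 and 0 without room temperature library 1. Mpc2, a subunit of the mitochondrial pyruvate carrier, was at 867, 817, 789 and 915 FPKM in the cold and 529, 554 and 604 FPKM at room temperature (0.59 ± 0.09, adjusted p = 5.45e-05). Pdk1 and Pdk2, kinases that switch pyruvate dehydrogenase off, also rose (0.57 ± 0.14, adjusted p = 0.00410; 0.39 ± 0.082, adjusted p = 0.00125). Pdk4, the kinase that fasting induces, was at 888, 1428, 919 and 1010 FPKM in the cold and 1062, 1257 and 859 FPKM at room temperature and did not pass (-0.0074 ± 0.20, adjusted p = 0.985). Pcx, pyruvate carboxylase, fell slightly (-0.29 ± 0.092, adjusted p = 0.0227), a call that was lost without cold library 4 or without room temperature library 1 or 3.

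Genes of fatty acid oxidation were mostly higher. Of 28 tested, 12 rose, 2 fell and 14 were not called, with a median of 0.22. Cpt2, the inner carnitine palmitoyltransferase, was at 425, 417, 394 and 405 FPKM in the cold and 248, 248 and 268 FPKM at room temperature (0.69 ± 0.083, adjusted p = 3.01e-06). Hadha, the alpha subunit of the trifunctional protein, was at 886, 871, 786 and 859 FPKM in the cold and 555, 529.7 and 553 FPKM at room temperature (0.64 ± 0.077, adjusted p = 3.05e-06), and its partner Hadhb rose too (0.45 ± 0.073, adjusted p = 0.000103). Slc25a20, the acylcarnitine carrier, was at 438, 453, 401 and 436 FPKM in the cold and 290.3, 293 and 295 FPKM at room temperature (0.56 ± 0.074, adjusted p = 1.02e-05). Acad11, an acyl-CoA dehydrogenase (0.66 ± 0.089), and Etfdh, which passes its electrons to ubiquinone (0.54 ± 0.087), were higher by similar amounts.

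Fatty acid supply genes changed in both directions. Of 18 genes for lipoprotein lipase and fatty acid uptake, 5 rose and 2 fell. Acsl5, an acyl-CoA synthetase, was at 552, 489, 442 and 557 FPKM in the cold and 223, 169 and 279 FPKM at room temperature (1.21 ± 0.21, adjusted p = 0.000179). Fabp3, the heart-type fatty acid binding protein, was at 305, 305, 276 and 306 FPKM in the cold and 120.4, 138 and 144 FPKM at room temperature (1.15 ± 0.17, adjusted p = 2.92e-05). Slc27a1, a fatty acid transport protein, rose by less (0.56 ± 0.12, adjusted p = 0.00217). Angptl4, an inhibitor of lipoprotein lipase, was at 44.8, 71.4, 43.7 and 48.1 FPKM in the cold and 153, 214 and 71.8 FPKM at room temperature and fell (-1.37 ± 0.30, adjusted p = 0.00174), with its lowest room temperature value, in library 3, only just above the highest cold value. The lipoprotein receptor Vldlr fell too (-0.57 ± 0.15, adjusted p = 0.00731). Lpl itself was at 1032, 1063, 849 and 945 FPKM in the cold and 776, 893 and 766 FPKM at room temperature and was not called (0.26 ± 0.14, adjusted p = 0.199).

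In lipid storage, 3 of 16 genes for lipolysis and lipid droplets rose and 0 fell. Plin2, a lipid droplet coat protein, was at 1047, 993, 879 and 1029 FPKM in the cold and 399, 325 and 612 FPKM at room temperature (1.20 ± 0.17, adjusted p = 3.02e-05). Mgll, monoglyceride lipase, the last step of triglyceride breakdown, was at 532, 545, 522 and 505 FPKM in the cold and 243, 218 and 288 FPKM at room temperature (1.08 ± 0.13, adjusted p = 2.13e-06). The third was Bscl2, seipin, by a small difference (0.27 ± 0.093, adjusted p = 0.0335), which was not called without any one of cold libraries 1 to 3 or room temperature libraries 1 and 2.

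Triglyceride synthesis was split. Of 13 genes tested, 5 rose and 3 fell. The counts were 4 and 1 without cold library 1, 3 and 2 without room temperature library 1, and 3 and 1 without room temperature library 2. The acyltransferases Mogat1 (0.90 ± 0.18, adjusted p = 0.000971) and Agpat3 (0.39 ± 0.091, adjusted p = 0.00349) and the phosphatidate phosphatase Lpin2 (0.61 ± 0.12, adjusted p = 0.000833) rose. Dgat2, which adds the last fatty acid, was at 617, 648, 698 and 659 FPKM in the cold and 1061, 989.5 and 1044 FPKM at room temperature and fell (-0.65 ± 0.13, adjusted p = 0.000974), and Pck1, of glyceroneogenesis, fell less (-0.47 ± 0.17, adjusted p = 0.0404). Agpat2 showed narrow cold values and wide room temperature values, at 1799, 1846, 1843 and 1785 FPKM in the cold and 1113, 782 and 1733 FPKM at room temperature (0.66 ± 0.20, adjusted p = 0.0175), so that library 3 nearly reached the cold group. The call of Agpat2 was lost without room temperature library 1 or 2, and that of Pck1 without 2 of the cold libraries or room temperature library 2 or 3. Gk, glycerol kinase, was at 72.5, 62.9, 46.3 and 48.4 FPKM in the cold and 27.3, 26.2 and 41.5 FPKM at room temperature, with no overlap but a wide spread in the pooled fit, and was not called (0.85 ± 0.40, adjusted p = 0.128), but passed with only these 7 libraries in the fit (adjusted p = 0.0133).

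Of 15 genes of de novo lipogenesis tested, 2 rose and 1 fell, with a median of 0.050. The counts were 0 and 1 without room temperature library 1 and 5 and 0 within the first library series. Elovl6, an elongase, was at 431, 425, 357 and 469 FPKM in the cold and 283, 190.5 and 344 FPKM at room temperature (0.66 ± 0.24, adjusted p = 0.0472), and Mlxipl, the sugar-sensing factor ChREBP, at 181, 196, 185 and 195 FPKM in the cold and 136, 123 and 177 FPKM at room temperature (0.39 ± 0.12, adjusted p = 0.0152). The desaturase Fads1 fell (-0.41 ± 0.099, adjusted p = 0.00424), a call that was lost within the first library series (adjusted p = 0.0911). Acly, which makes cytosolic acetyl-CoA, was at 1372, 1216, 1225 and 1352 FPKM in the cold and 1355, 759.7 and 1708 FPKM at room temperature (0.095 ± 0.28, adjusted p = 0.837), and Acaca, acetyl-CoA carboxylase, at 308, 326, 285 and 330 FPKM in the cold and 319, 240.1 and 356 FPKM at room temperature (0.05 ± 0.21, adjusted p = 0.890). In both the room temperature libraries spanned the whole range of the cold ones. The call of Elovl6 was lost without cold library 1, 2 or 4 or room temperature library 1 or 2, and that of Mlxipl without room temperature library 1 or 2.

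**Figure D3:**
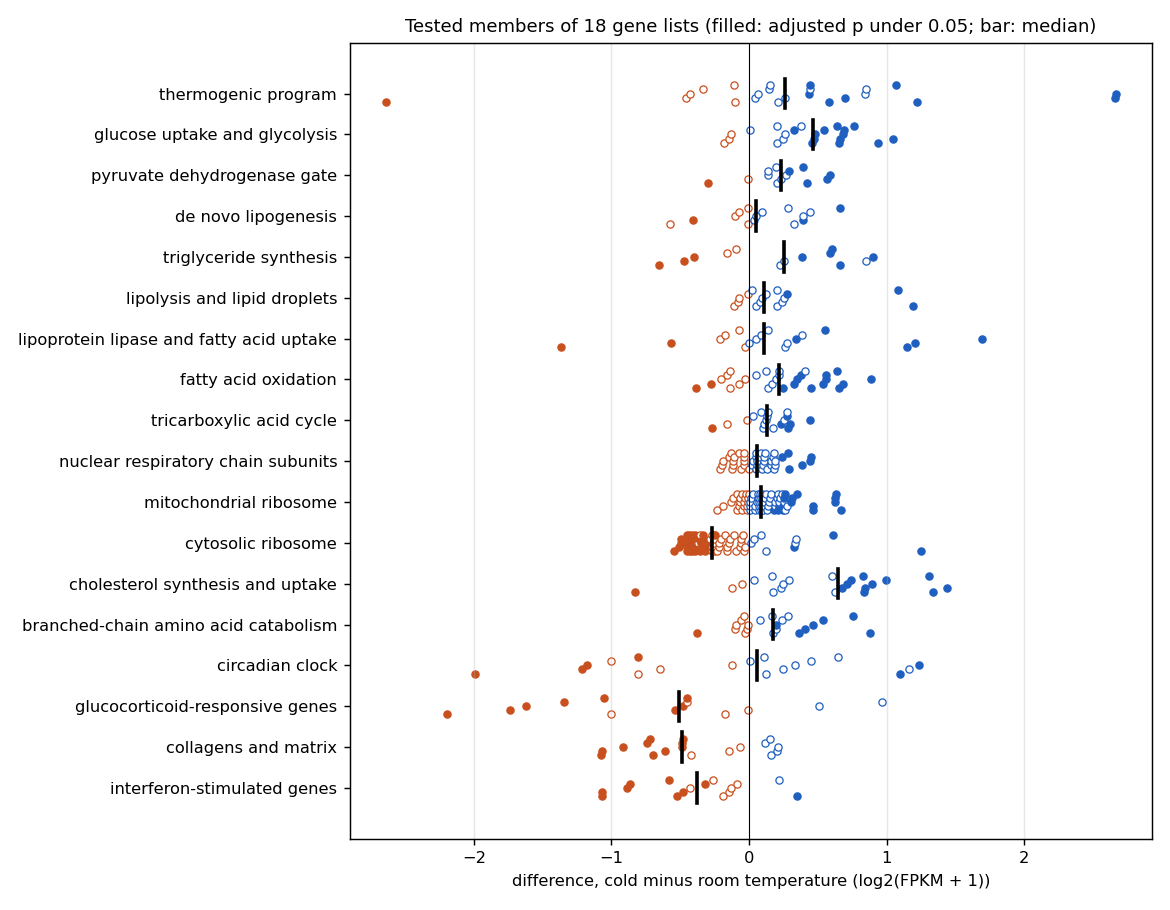
Differences in log2(FPKM + 1), cold minus room temperature, of the tested members of 18 gene lists. Each circle is 1 gene, filled where it was called, and bars are medians. Medians run from 0.65 for cholesterol synthesis and uptake to -0.51 for the glucocorticoid-responsive genes, and members of 1 list are not independent of each other.

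Some genes of the oxidative machinery rose, by small amounts. Of 18 genes of the tricarboxylic acid cycle, 5 rose, led by Suclg2 (0.44 ± 0.076, adjusted p = 0.000200), and 1 fell, against 3 and 0 without room temperature library 1 and 2 and 1 within the first library series. Of 44 nuclear genes for respiratory chain subunits, 6 rose and 0 fell, a share of rises close to that over all genes, with a median of 0.057. Without cold library 4 or room temperature library 1, 3 rose and 0 fell, within the first library series 2 rose and 0 fell, and with quantile normalization 3 rose and 8 fell. Atp5b, the catalytic subunit of ATP synthase, was at 4686, 4970, 4584 and 4827 FPKM in the cold and 3422, 3621 and 3466 FPKM at room temperature (0.44 ± 0.066, adjusted p = 4.05e-05), a call that was lost with quantile normalization (adjusted p = 0.282). Uqcrfs1, the Rieske protein of complex III, rose as well (0.38 ± 0.073, adjusted p = 0.000537). Of 76 genes for proteins of the mitochondrial ribosome, 16 rose and 0 fell, for example Mrpl47 (0.63 ± 0.094, adjusted p = 4.26e-05) and Mrpl20 (0.63 ± 0.095, adjusted p = 4.80e-05). The rises numbered 10 without cold library 2, without cold library 4 or within the first library series, 8 without room temperature library 1 and 9 without room temperature library 2.

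Of 71 tested genes of the cytosolic ribosome, 32 fell and 3 rose, with a median of -0.27. The groups did not overlap in 50, against 34.3% of all genes tested. The count of called genes rested in large part on room temperature library 2, without which 7 fell and 2 rose. Rps4x was at 64.1, 72.3, 59.4 and 66.02 FPKM in the cold and 92.9, 106 and 89.2 FPKM at room temperature (-0.55 ± 0.083, adjusted p = 5.34e-05), and Rplp0 at 169.8, 184, 165 and 167 FPKM in the cold and 215, 256 and 235 FPKM at room temperature (-0.45 ± 0.096, adjusted p = 0.00149). Rpl39l, a paralogue of Rpl39, was at 5.24, 5.24, 5.56 and 7.23 FPKM in the cold and 1.82, 2.12 and 1.60 FPKM at room temperature and rose (1.25 ± 0.17, adjusted p = 1.21e-05), as did Rpl5, listed at only 2.80, 3.51, 2.12 and 3.21 FPKM in the cold and 1.61, 1.34 and 1.65 FPKM at room temperature (0.61 ± 0.15, adjusted p = 0.00366). Ribosomal protein genes have many near-identical copies in the genome, so their values depend on how the authors' software split shared reads.

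In cholesterol synthesis and uptake, 11 of 22 genes rose and 1 fell, with a median of 0.65. Within the first library series the median was 0.82, and between the 2 libraries of the second series, 1 per group, it was 0.24. Sc5d, a sterol desaturase, was at 85, 75.3, 64.4 and 90.4 FPKM in the cold and 27.3, 21.6 and 50.2 FPKM at room temperature (1.31 ± 0.22, adjusted p = 0.000166). Room temperature library 3 was the highest of its group in Sc5d, though below all cold libraries. Hsd17b7 (1.00 ± 0.19) and Tm7sf2 (0.83 ± 0.15) rose too.

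In the breakdown of branched-chain amino acids, fuels that brown fat takes up in the cold, 7 of 21 genes rose and 1 fell, against 5 and 0 without room temperature library 2. Pcca, the alpha subunit of propionyl-CoA carboxylase, was at 236, 222, 201 and 242 FPKM in the cold and 122, 119 and 124 FPKM at room temperature (0.88 ± 0.10, adjusted p = 2.21e-06). Mcee, of the next step, was at 238, 252, 237 and 255 FPKM in the cold and 136, 151 and 146 FPKM at room temperature (0.76 ± 0.11, adjusted p = 2.04e-05), and Bckdhb, a subunit of the branched-chain ketoacid dehydrogenase, at 133, 149, 128 and 132 FPKM in the cold and 96.98, 100.2 and 96.7 FPKM at room temperature (0.47 ± 0.07, adjusted p = 4.47e-05). The groups were apart in each, as they were in 90.4% of all called genes.

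Of 5 creatine genes tested, 2 rose and 2 fell. Ckb, the brain-type creatine kinase, was at 50.9, 48.8, 37.8 and 32.5 FPKM in the cold and 10.1, 10.3 and 13.2 FPKM at room temperature (1.82 ± 0.21, adjusted p = 2.33e-06), and Alpl, tissue-nonspecific alkaline phosphatase, at 26.9, 28.03, 22.8 and 23.9 FPKM in the cold and 6.60, 7.38 and 11.4 FPKM at room temperature (1.51 ± 0.17, adjusted p = 1.08e-06). Both have been placed in a creatine cycle of brown fat. The creatine transporter Slc6a8 (-0.69 ± 0.14, adjusted p = 0.000803) and the synthesis enzyme Gamt (-0.75 ± 0.18, adjusted p = 0.00339) fell.

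Stress pathways gave mixed counts. Of 14 genes of the integrated stress response and serine synthesis, 5 rose and 3 fell. Atf4, its main transcription factor, was at 98.8, 107, 87.1 and 97.9 FPKM in the cold and 42.2, 45.8 and 77.96 FPKM at room temperature (0.86 ± 0.17, adjusted p = 0.000615), and Atf5 at 207, 207, 203 and 181 FPKM in the cold and 104, 93.5 and 166 FPKM at room temperature (0.76 ± 0.14, adjusted p = 0.000277). Slc3a2, the heavy chain of amino acid transporters, was at 65.3, 73.8, 63.9 and 56.5 FPKM in the cold and 19.3, 23.6 and 39.6 FPKM at room temperature (1.27 ± 0.18, adjusted p = 2.98e-05), while Phgdh, which starts serine synthesis, fell from low levels (-0.79 ± 0.16, adjusted p = 0.000773). Of 29 genes for chaperones and the unfolded protein response, 5 rose and 2 fell. The counts were 3 and 1 without cold library 4, 2 and 1 without room temperature library 1, and 2 and 2 within the first library series. Derl1, of protein export from the endoplasmic reticulum (0.72 ± 0.11, adjusted p = 6.82e-05), Manf, a secreted stress factor (0.64 ± 0.17, adjusted p = 0.00759), and Calr, calreticulin, at 105, 122, 97.2 and 113 FPKM in the cold and 83.7, 89.7 and 85.96 FPKM at room temperature (0.33 ± 0.08, adjusted p = 0.00412), rose. Xbp1 fell (-0.68 ± 0.17, adjusted p = 0.00562), and the chaperone Hspa5 was at 104, 115, 85.6 and 101 FPKM in the cold and 93.5, 97.5 and 103 FPKM at room temperature and did not pass (0.038 ± 0.11, adjusted p = 0.839). The call of Manf was lost without room temperature library 1, and that of Calr within the first library series (adjusted p = 0.0583).

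Among antioxidant genes, 5 of 15 rose and 2 fell, against 2 and 2 without room temperature library 1 and 1 and 2 without library 2. The enzymes Pgd (0.81 ± 0.20, adjusted p = 0.00410) and G6pdx (0.56 ± 0.13, adjusted p = 0.00312), which make NADPH, rose, as did the factor Nfe2l2 itself (0.53 ± 0.15, adjusted p = 0.0127). The call of Pgd was lost without room temperature library 2 and that of Nfe2l2 without library 1 or 2. Gpx3, a secreted glutathione peroxidase, was at 712, 908, 745 and 419.6 FPKM in the cold and 1411, 1474 and 1428 FPKM at room temperature and fell (-1.10 ± 0.17, adjusted p = 7.90e-05). Hmox1, heme oxygenase, was at 10.1, 12.3, 10.9 and 11.3 FPKM in the cold and 4.16, 3.88 and 5.55 FPKM at room temperature (1.14 ± 0.41, adjusted p = 0.0431), a call that was lost when any one library other than room temperature library 3 was left out. The next enzymes of heme breakdown, Blvra (-0.90 ± 0.12, adjusted p = 1.37e-05) and Blvrb (-0.65 ± 0.12, adjusted p = 0.000553), fell. Of 13 heat shock and cold shock genes, 0 were called without room temperature library 3, and 1 to 4 without any one of the other libraries, with 4 rises and 0 falls without cold library 3. With all libraries Hsp90aa1 rose (0.69 ± 0.20, adjusted p = 0.0140) and the cold-inducible RNA-binding protein Rbm3 fell (-0.40 ± 0.13, adjusted p = 0.0336), at 7.49, 7.93, 5.67 and 8.21 FPKM in the cold and 10.7, 8.23 and 10.9 FPKM at room temperature. The related Cirbp was at 14.7, 13.2, 14.9 and 14.4 FPKM in the cold and 18.3, 17.9 and 16.5 FPKM at room temperature and was not called (-0.28 ± 0.18, adjusted p = 0.269), but passed with only these 7 libraries in the fit (adjusted p = 0.0283). The call of Rbm3 was lost without cold library 1 or 3 or room temperature library 1 or 3, and that of Hsp90aa1 without cold library 2 or room temperature library 3.

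The list of PPAR and C/EBP factors, with 12 genes tested, also held retinoid X receptors, Krüppel-like factors and a fatty acid binding protein. Ppard rose, at 16.97, 18, 17.9 and 15.4 FPKM in the cold and 10.2, 10.1 and 10.1 FPKM at room temperature (0.69 ± 0.13, adjusted p = 0.000617). The 3 falls were Klf15, another Krüppel-like factor and Pparg. Pparg was at 149, 158, 139.6 and 142 FPKM in the cold and 212, 208 and 155 FPKM at room temperature (-0.36 ± 0.11, adjusted p = 0.0142). No C/EBP factor was called in this fit. Without room temperature library 3, and likewise within the first library series, 2 genes of the list rose and 3 fell. A C/EBP factor was then among the rises (adjusted p = 0.0290 and 0.00206, respectively). The lowest Pparg value at room temperature, in library 3, lay within the cold range, and its call was lost without room temperature library 1 or 2, either of which left 1 rise and 1 fall in the list. Thrb, a thyroid hormone receptor, was the 1 gene called of 8 for thyroid hormone action (-0.62 ± 0.20, adjusted p = 0.0243). One room temperature library was high in Thrb, at 20.3 FPKM against 10.3 and 9.97 FPKM, and the call was lost without that library or without cold library 4. Without room temperature library 3, 1 of these 8 genes rose and 1 fell.

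Of 18 circadian clock genes, 2 rose and 4 fell, against 4 and 6 within the first library series. Arntl (BMAL1), of the positive arm, was at 9.02, 9.09, 5.72 and 9.02 FPKM in the cold and 2.88, 3.88 and 3.03 FPKM at room temperature (1.10 ± 0.16, adjusted p = 2.44e-05), and Cry1, a late repressor, at 11.9, 10.7, 8.46 and 11.7 FPKM in the cold and 4.23, 3.78 and 3.79 FPKM at room temperature (1.24 ± 0.20, adjusted p = 7.90e-05). The falls were Dbp, at 1.80, 2.62, 3.01 and 1.75 FPKM in the cold and 14.2, 11.2 and 10.7 FPKM at room temperature (-1.99 ± 0.26, adjusted p = 7.89e-06), Per3 (-1.21 ± 0.27, adjusted p = 0.00215), Nr1d2 (-1.18 ± 0.23, adjusted p = 0.000827) and Tef (-0.81 ± 0.18, adjusted p = 0.00200). The hour of tissue collection is not given in the labels, so cold and hour of collection cannot be told apart for these genes.

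Genes that glucocorticoids are known to induce were mostly lower: of 14 tested, 8 fell and 0 rose, with a median of -0.51. Fkbp5, a chaperone that dampens the glucocorticoid receptor, was at 1.22, 1.09, 1.13 and 1.37 FPKM in the cold and 8.10, 15.2 and 1.67 FPKM at room temperature (-1.74 ± 0.45, adjusted p = 0.00702). Zbtb16 was at 2.75, 3.38, 2.67 and 3.17 FPKM in the cold and 28.8, 40.2 and 3.96 FPKM at room temperature (-2.20 ± 0.60, adjusted p = 0.0102), and Tsc22d3 (GILZ) at 12.5, 12.1, 12.1 and 9.27 FPKM in the cold and 44.8, 52.9 and 21.8 FPKM at room temperature (-1.62 ± 0.28, adjusted p = 0.000188). In all 3, room temperature libraries 1 and 2 were high, and library 3 lay closer to the cold libraries than to them. In Foxo1 (-1.06 ± 0.24, adjusted p = 0.00269) library 3 was also the lowest of its group, at 23.4, 22.6 and 10.7 FPKM at room temperature. Ddit4 fell (-1.35 ± 0.42, adjusted p = 0.0210) with room temperature libraries closer together, at 21.57, 19.45 and 16.02 FPKM. Foxo3 fell although library 3 lay within the cold range (-0.54 ± 0.16, adjusted p = 0.0148). Myc, an early-response gene, was likewise lowest in library 3 among those at room temperature. It was at 0.383, 0.470, 0.471 and 0.360 FPKM in the cold and 3, 6.44 and 1.18 FPKM at room temperature (-1.50 ± 0.29, adjusted p = 0.000728). Myc was the 1 gene called of 14 immediate-early genes. Without room temperature library 3, 4 of these immediate-early genes rose and 1 fell, and within the first library series 6 rose and 2 fell. Without that library, 7 of the 14 glucocorticoid-responsive genes fell and 2 rose. The falls among the glucocorticoid-responsive genes numbered 3 without room temperature library 1, 2 without library 2 and 5 without cold library 4. The call of Fkbp5 was lost without room temperature library 2 (adjusted p = 0.0868), and those of Zbtb16, Foxo3 and Ddit4 without library 1 or 2, that of Ddit4 also without cold library 4.

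**Figure D4:**
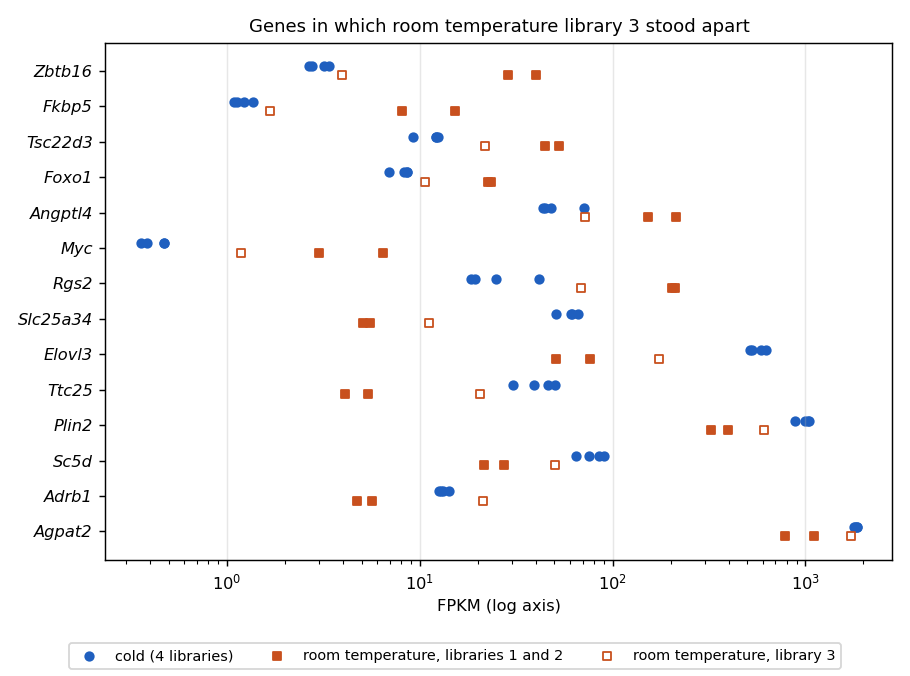
FPKM per library on a log axis for 14 genes, chosen after their values were seen, in which room temperature library 3 (open squares) lay apart from room temperature libraries 1 and 2 (filled squares). Cold libraries are blue circles. In Fkbp5 the open square is at 1.67 FPKM, next to the cold libraries at 1.09 to 1.37 FPKM, and in Adrb1 it lies beyond them.

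Matrix and immune genes were lower in the cold. Of 18 genes for collagens and matrix, 10 fell and 0 rose, with a median of -0.48. Col1a2 was at 8.01, 9.24, 8.55 and 8.49 FPKM in the cold and 19.5, 20.7 and 17.3 FPKM at room temperature (-1.07 ± 0.15, adjusted p = 1.89e-05), and Col3a1 at 15.7, 18.97, 16.6 and 18.4 FPKM in the cold and 39.3, 43.1 and 31.1 FPKM at room temperature (-1.07 ± 0.16, adjusted p = 3.61e-05). Col1a1 (-0.92 ± 0.16, adjusted p = 0.000170) and Col5a1 (-0.74 ± 0.11, adjusted p = 4.07e-05) fell alike. Of the 7 fibroblast and preadipocyte markers tested, 2 fell (0 without room temperature library 2, and 1 without cold library 1 or 3 or room temperature library 1), and the sum over the markers was 158 to 182 FPKM in the cold and 165 to 213 FPKM at room temperature. In bulk tissue, fewer cells of a type and less RNA per cell cannot be told apart.

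Of 16 interferon-stimulated genes, 8 fell and 1 rose, with a median of -0.38. Psmb8 and Psmb9, subunits of the immunoproteasome, were at 6.30, 6.18, 7.72 and 6.74 FPKM in the cold and 18.7, 14.3 and 12.9 FPKM at room temperature (-1.07 ± 0.14, adjusted p = 8.52e-06) and at 4.23, 3.41, 4.24 and 3.85 FPKM in the cold and 12.3, 9.82 and 6.58 FPKM at room temperature (-1.07 ± 0.14, adjusted p = 9.00e-06). B2m, the light chain of MHC class I, was at 282, 311, 239 and 276 FPKM in the cold and 618, 553 and 374 FPKM at room temperature (-0.87 ± 0.16, adjusted p = 0.000343). Tap1, the peptide transporter, whose gene lies next to Psmb9, fell too (-0.88 ± 0.11, adjusted p = 3.23e-06), as did Bst2 (-0.58 ± 0.12, adjusted p = 0.00163) and Irf7 (-0.52 ± 0.14, adjusted p = 0.00706). Of 37 proteasome genes, 9 fell with quantile normalization. In the fit used throughout, the 3 falls were Psmb8, Psmb9 and Psmb10 (-0.63 ± 0.11, adjusted p = 0.000206), all of the immunoproteasome, and the 1 rise was Psmc4 (0.38 ± 0.09, adjusted p = 0.00359).

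Macrophage markers were lower in the same libraries: of 10 tested, 5 fell and 0 rose, and the sum over the markers was 85.4 to 95.9 FPKM in the cold and 104 to 123 FPKM at room temperature. The falls numbered 3 without cold library 1 or room temperature library 1, and 2 without room temperature library 2. Cd14 (-0.68 ± 0.14, adjusted p = 0.000904) and Cd163 (-0.74 ± 0.16, adjusted p = 0.00162) fell most. Mrc1 and Csf1r fell by less (-0.46 and -0.43), and their calls were lost without cold library 1 or room temperature library 1 or 2, and that of Csf1r also without room temperature library 3. The part of macrophages in the immune and matrix genes was not tested.

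Endothelial markers were mostly higher: of 10 tested, 5 rose and 1 fell, and the sum was 282 to 324 FPKM in the cold and 232 to 240 FPKM at room temperature. Emcn, endomucin, was at 21.4, 22.7, 15.1 and 21.3 FPKM in the cold and 9.52, 9.79 and 11.2 FPKM at room temperature (0.91 ± 0.14, adjusted p = 4.51e-05). Eng (0.87 ± 0.16, adjusted p = 0.000363), the VEGF receptor Kdr (0.71 ± 0.14, adjusted p = 0.000943) and Pecam1 (0.42 ± 0.084, adjusted p = 0.000918) rose, and Tie1 fell (-0.35 ± 0.093, adjusted p = 0.00822), which was lost without room temperature library 2. Cdh5 rose by a small amount (0.32 ± 0.11, adjusted p = 0.0360), a call that was lost without any one of 6 of the 7 libraries. Flt1 and Tek, 2 other endothelial receptors, were not called.

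Blood genes rose as a block. All 5 erythroid markers tested were called, and the sum over the erythroid markers was 342 to 601 FPKM in the cold and 120 to 188 FPKM at room temperature. Hbb-bs, a beta globin, was at 357, 369.7, 216 and 355 FPKM in the cold and 102, 78.3 and 115 FPKM at room temperature (1.70 ± 0.31, adjusted p = 0.000332), Hba-a1 at 89.6, 99.5, 47.9 and 76.9 FPKM in the cold and 21.98, 15.4 and 31.5 FPKM at room temperature (1.73 ± 0.30, adjusted p = 0.000204) and Alas2, the erythroid enzyme of heme synthesis, at 5.29, 5.82, 3.16 and 5.50 FPKM in the cold and 1.73, 1.10 and 1.92 FPKM at room temperature (1.19 ± 0.26, adjusted p = 0.00164). Hba-a1 and Hba-a2, and Hbb-bs and Hbb-bt, are near-identical pairs, and the split of reads between them is uncertain. Ighm rose in the same 4 libraries, and whether it and the globins come from blood in the tissue was not tested.

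The remaining lists were small. Of 8 cell cycle genes that passed the level filter, Ccnd1, cyclin D1, was at 7.90, 6.04, 7.19 and 8.90 FPKM in the cold and 1.28, 1.32 and 1.39 FPKM at room temperature (1.86 ± 0.20, adjusted p = 6.44e-07), and Tyms, thymidylate synthase, rose slightly (0.36 ± 0.096, adjusted p = 0.00921), which was lost without room temperature library 1. Of 17 autophagy and lysosome genes, 4 rose and 0 fell, led in level by Ctsd, cathepsin D, at 1111, 1131, 1061 and 1109 FPKM in the cold and 791, 764 and 883 FPKM at room temperature (0.44 ± 0.079, adjusted p = 0.000286), and Lamp1, at 395, 411, 344 and 374 FPKM in the cold and 264, 277 and 276 FPKM at room temperature (0.48 ± 0.081, adjusted p = 0.000171).

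The cold challenge in BKO mice, which share no library with the FF comparison, addressed whether the response differs without Klf15 in brown adipocytes. The labels do not say whether the challenge was the same in both genotypes. All BKO libraries compared belong to the second library series, and 5 of the 7 FF libraries to the first. A difference between genotypes therefore cannot be fully told apart from a difference between series. Klf15, the deleted gene, was at 3.15, 3.67 and 5.13 FPKM in BKO mice at room temperature and at 2.12, 2.54, 2.84 and 2.18 FPKM in BKO mice in the cold, below every FF library, the lowest of which was at 9.04 FPKM. In BKO mice 1225 genes rose (10.3%) and 805 fell (6.75%), 2030 in all (17%). Of the genes called, 1007 rose in both genotypes and 591 fell in both, which is 54.6% of those called in FF mice and 78.7% of those called in BKO mice. The number called in opposite directions was 0. Of the 1679 FF rises, 98.3% had the same sign in BKO mice, and of the 1248 FF falls, 97.8%. The median difference of the FF rises was 0.47 in FF and 0.36 in BKO mice, and that of the FF falls -0.45 and -0.34. Genes selected in FF mice will tend to show larger values in FF mice than in others, so these medians are no comparison of strength. Ucp1 was at 0 in the BKO cold libraries as well, as was Gpd1.

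At an unadjusted p under 0.05 the test of the difference itself gave 390 of the 11927 genes. That is a smaller share than the 0.05 that chance alone would give. After adjustment the test called 2 genes (0.0168%). One was Anxa8, at 2.13, 1.54 and 1.60 FPKM in BKO mice at room temperature and at 0.219, 0.143, 0.256 and 0.0975 FPKM in BKO mice in the cold. In FF mice it was at 0.477, 0.559, 0.461 and 0.417 FPKM in the cold and 5.93, 6.60 and 4.13 FPKM at room temperature. It fell in both, with differences of -1.22 in BKO and -2.13 in FF mice, and BKO minus FF was 0.91 ± 0.16 (adjusted p = 0.0462). This call was lost under 16 of 22 alternatives, among them a pseudocount of 0.1 (difference 0.51), no filter on low values, only the groups compared, and the loss of any one of the 14 libraries other than room temperature library 3 of FF or library 1 of BKO mice. The level of Anxa8 at room temperature was lower in BKO mice, and with 1 added before the logarithm the size of this difference depends on the scale. The other was the small Cajal body RNA Gm22767, at 2.07, 2.01 and 1.93 FPKM in FF mice at room temperature and listed at 0 in the 4 FF cold libraries and the 7 BKO libraries. Whether these zeros are failed estimates, as in Ucp1, was not tested, so they are not read as absence of the RNA. It lies within the gene Ppp1r8 on the same strand.

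The leading genes had the same direction in both genotypes. Mb differed by 3.31 in BKO mice, Hcn2 by 3.04, Elovl3 by 2.56, Car3 by -3.83 and Cfd by -2.27. Some leading FF genes had smaller differences in BKO mice, as genes selected for their size in FF mice will tend to. None of those below passed the test of the difference after adjustment. Mycl differed by -1.21 in BKO and -2.22 in FF mice (unadjusted p = 0.00122; adjusted p = 0.869), and Irf4 by -1.15 and -2.64 (unadjusted p = 0.00875; adjusted p = 1.000). Ighm, at 2.04 in FF mice, differed by 0.51 in BKO mice, where it was not called (unadjusted p of the difference = 0.00176, adjusted p = 0.973). Dio2, not among the leading genes and not called in either genotype, had opposite signs, at 0.84 in FF and -0.50 in BKO mice. In BKO mice its mean was 37.9 FPKM in the cold and 51.8 FPKM at room temperature (unadjusted p of the difference = 0.0178, adjusted p = 0.9999).

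**Figure D5:**
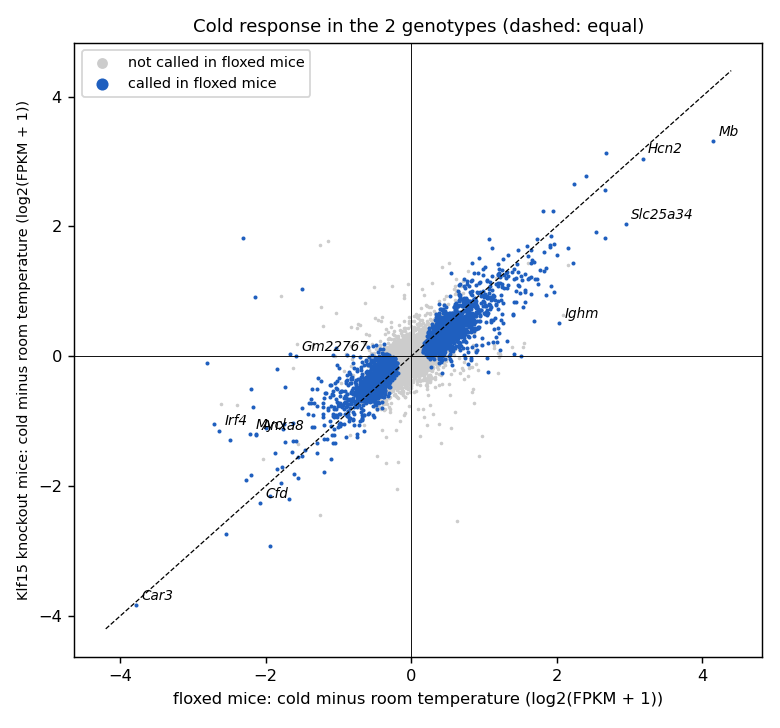
Difference in log2(FPKM + 1) between cold and room temperature in FF mice (x axis) and BKO mice (y axis) for the 11927 genes, blue where called in FF mice. The dashed line marks equal responses, and of the 2927 genes called in FF mice 1598 were also called in BKO mice with the same sign.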

How the data were processed

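RNA of brown adipose tissue was sequenced from 26 mouse libraries, 7 of which are compared here. The authors deposited 1 table of FPKM values per gene and library. Per the submitters' processing notes they were made with STAR, Cufflinks and Cuffdiff on mm10, with no versions, and the annotation is not given in the sources used here. All genes were fitted in 1 linear model of the 8 group means over 26 libraries on log2(FPKM + 1), with limma 3.58.1 in R 4.3.3 (empirical Bayes with an intensity trend, two-sided, Benjamini-Hochberg adjustment, threshold 0.05). A gene was tested with at least 1 FPKM in 3 of the 7 libraries. Zeros were treated as failed where the smallest value above 0 was at least 100 FPKM, and in Ucp1, Gpd1, Fasn and Scd1. Genes with such zeros in any of the 26 libraries were left out of the fit whole. This held for 34 genes, of which 3 would have passed the filter. Gene IDs were matched to GENCODE M21 on GRCm38 (11900 of the 11927 tested).

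Named genes were 24 fixed by name, the 15 largest changes each way among called genes without overlap and with a mean of at least 2 FPKM, and up to 6 members per list with the smallest adjusted p, of which some are described; a few genes are not reported here. The members and lists were chosen with earlier results of these data known. Promoter matches leave out chromosome 18. Replicate numbers were given in accession order and pair nothing. The fit was checked on simulated data. Alternatives changed the pseudocount, filter, scaling, libraries, library series, weights and moderation, and each library was left out in turn.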

Additional observations from a re-analysis of the deposited data

Results flagged for a closer look

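In 12 of the 176 genes examined, 1 of the 4 cold libraries lay far from the other 3 in log2(FPKM + 1), with a gap to its nearest neighbour that, as a share of the group's range, was above Dixon's critical value for 4 values. Chance gives such a gap in about 1 in 20 groups. Cold library 3 was the lowest in 7 of these genes. Its gap was 0.834 of the range in Alas2 (3.16 FPKM against 5.29 to 5.82), 0.927 in Hbb-bs (215.5 FPKM against 355 to 370 FPKM), 0.981 in Arntl (5.72 FPKM against 9.02 to 9.09), 0.847 in Emcn (15.1 FPKM against 21.3 to 22.7), 0.966 in Fabp3 (276 FPKM against 305 to 306), 0.839 in Mrpl47 (16.4 FPKM against 19.8 to 20.5) and 0.912 in Nfe2l2 (27.99 FPKM against 36.9 to 37.9). In each of these genes it was still above the room temperature libraries.

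Cold library 2 was the highest in Irf4 (6.39 FPKM against 3.02 to 3.34, gap 0.875) and Per3 (3.87 FPKM against 2.52 to 2.72, gap 0.831), and the lowest in Igf1 (3.37 FPKM against 3.98 to 4.10, gap 0.837). Cold library 1 was the highest in Hsd17b7 (6.39 FPKM against 4.49 to 4.62, gap 0.922), and cold library 4 the lowest in Tsc22d3 (9.27 FPKM against 12.1 to 12.5, gap 0.9).

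The cold response differed between BKO and FF mice by the test of the difference in Anxa8, by 0.91, a call that was lost under 16 of 22 alternatives, and in the small Cajal body RNA Gm22767, by 1.58 on the log2 scale. Gm22767 was listed at 0 in all BKO libraries of the comparison and in the FF cold libraries, and whether these zeros are failed estimates was not tested.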

How the results depend on the processing

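The count of genes called in FF mice was 2927 and lay between 2053 and 3268 under 9 of 10 other settings of the fit, which include the first library series alone (2680). The tenth, array weights, gave 6535. In BKO mice (2030) array weights gave 3342, and in the difference between genotypes (2) they gave 152. That last count was 1 with a pseudocount of 0.1, without the filter on low values, with median centring and with only the groups compared, and 0 with a mean of at least 5 FPKM. Leaving out 1 library at a time gave 1752 to 3163 genes in FF mice, lowest without room temperature library 1 (1752) or 2 (1771), 1374 to 1916 in BKO mice, and 1 to 4 for the difference, with 4 without BKO room temperature library 1. An added restriction to protein-coding genes, chosen after seeing the data, gave 2675. Of the 159 called genes named, 127 stayed called under each of the 16 to 18 alternatives in which they were tested, and 20 calls were lost without room temperature library 1, 21 without library 2, 10 without the filter, 9 in the first library series alone and 6 with quantile normalization. Of the 17 not called, 10 passed under at least 1 alternative. Reversed signs occurred in 6 genes that were not called. Quantile normalization gave -0.086 for Acaca and -0.068 for Hspa5. The first library series alone gave -0.062 for Ppargc1a and 0.079 for Adrb3. Leaving out 1 library at a time gave -0.16 to 0.12 for Pdk4, -0.41 to 0.093 for Adrb3, -0.024 to 0.12 for Hspa5, -0.24 to 0.345 for Acly and -0.11 to 0.17 for Acaca. The cause of these changes was not tested. Of the 41 lists, 10 kept a count of called members within 1.5 times of that reported under every alternative. No paired analysis was possible because the replicate numbers were given in accession order and the labels pair no libraries. Depth is unknown without counts, so that calls of genes near 1 FPKM rest on the spread between libraries alone.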
